A study of Mus musculus with 4 samples.

Results

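The receptors for noradrenaline and dopamine were followed through the nuclei of the mouse hippocampus as 9 genes, chosen by gene name alone: the adrenergic receptors Adra1a, Adra1b, Adra1d, Adra2a, Adra2c and Adrb1 and the dopamine receptors Drd1, Drd2 and Drd5. They are 9 of the 56748 genes in the count tables, and all 9 are among the 37385 genes with at least 1 UMI (a unique transcript counted once). Single-nucleus RNA-seq was made by split-pool barcoding on 8 pools of hippocampi, each from 3 mice. The study asked how repeated social defeat (RSD), in which males are defeated by an aggressive CD-1 male, changes hippocampal neurons, and whether microglia or the IL-1 receptor of neurons are needed for it. The diet experiment used male C57BL/6 mice, bought at 5 to 7 weeks of age. Its pools are Control-Vehicle and Stress-Vehicle, given vehicle chow, and Control-PLX5622 and Stress-PLX5622, whose chow held PLX5622, a CSF1R antagonist that depletes microglia, from before RSD onward. The genotype experiment used male mice bred in-house. Con-IL-1R1+/+ and Stress-IL-1R1+/+ are Cre-negative mice, and Con-nIL-1R1-/- and Stress-nIL-1R1-/- lack Il1r1 in cells in which Vglut2-Cre was active, that is in glutamatergic neurons and not in the whole animal. Control mice were undisturbed, and nuclei were taken 14 h after the last defeat.

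Noradrenaline reaches the hippocampus from the locus coeruleus, and dopamine from the locus coeruleus and the midbrain. Alpha-1 receptors (Adra1a, Adra1b, Adra1d) couple to Gq and phospholipase C, alpha-2 receptors (Adra2a, Adra2c) to Gi, beta-1 receptors (Adrb1) to Gs and cAMP, D1-type dopamine receptors (Drd1, Drd5) to Gs or Golf, and the D2 receptor (Drd2) to Gi. In the striatum Drd1 and Drd2 mark separate populations of medium spiny neurons, of which the Drd2 type also expresses Adora2a and Penk.

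After nuclei with over 20% mitochondrial UMIs were left out, 56834 of 57350 nuclei and 217534776 UMIs remained, with 5858 to 8474 nuclei per pool. Depth differed widely: the median nucleus had 598 UMIs in Control-PLX5622 and 628 in Stress-PLX5622, against 5012 in Con-nIL-1R1-/-, and pool totals ran from 7534594 to 58081835 UMIs. No barcode was shared between pools. Clusters took the name of a class from marker genes (17 classes, each written with the ending "-like"), and 22899 nuclei (40.3%) in clusters that met no naming rule stayed unnamed. All 8 medium spiny markers were highest in the striatal class, 8 of 9 Lhx6 interneuron markers and 5 of 9 Adarb2 interneuron markers in theirs. Only 2 of 6 markers of the deep-layer excitatory class were highest there, and none of the 6 of the Slc17a6 excitatory class, so these names rest on the naming rule. No class marker was at 0 in its own class. Hippocampus holds few medium spiny, cerebellar granule or thalamic neurons, and the striatal (268), cerebellar granule (119) and most of the Slc17a6 nuclei (1343 of 2091) came from single pools or small numbers, so they are reported apart. Microglia-like nuclei numbered 12 and 11 in the PLX5622 pools of 1112 in all. Il1r1, the deleted gene, was at 62.1 and 29.0 CPM in DG granule-like nuclei of Con-IL-1R1+/+ and Stress-IL-1R1+/+, against 11.7 and 8.98 in Con-nIL-1R1-/- and Stress-nIL-1R1-/-.

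Each condition is 1 pool, so levels are descriptions. They are given in CPM, the UMIs of a gene scaled to 1000000 UMIs of the class, with exact 95% Poisson or binomial intervals that hold counting error only. Where a class had no UMI of a gene, the limit given is 3 nuclei of the total, and it bounds the nuclei with a counted UMI, not the nuclei that express the gene. Tests were made with edgeR on UMIs summed per pool and class, over 4 pairs of control and RSD pools (vehicle, PLX5622, IL-1R1+/+, nIL-1R1-/-) and 8 classes with at least 20 nuclei in every pool. Their p-values measure the spread between these pools. In the sums over all nuclei, fewer cells of a type and less RNA per cell cannot be told apart.

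The alpha-1 family gave most of the values below, and its members differ in where their genes start. The 250 bases before and 50 from the start of the canonical transcript (GENCODE vM39, GRCm39, transcribed strand) are shown because Adra1a and Adra1b shared a direction between control and RSD pools in interneurons while Adra1d was lower in interneurons than in DG, CA1 and CA2/3-like nuclei. Capitals mark a GC box (GGGCGG, on either strand).
Adra1a: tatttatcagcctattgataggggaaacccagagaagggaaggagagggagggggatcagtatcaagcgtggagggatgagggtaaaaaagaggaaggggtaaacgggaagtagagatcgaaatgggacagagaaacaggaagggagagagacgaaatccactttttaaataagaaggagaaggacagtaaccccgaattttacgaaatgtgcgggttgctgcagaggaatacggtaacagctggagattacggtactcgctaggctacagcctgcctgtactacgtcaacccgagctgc
Adra1b: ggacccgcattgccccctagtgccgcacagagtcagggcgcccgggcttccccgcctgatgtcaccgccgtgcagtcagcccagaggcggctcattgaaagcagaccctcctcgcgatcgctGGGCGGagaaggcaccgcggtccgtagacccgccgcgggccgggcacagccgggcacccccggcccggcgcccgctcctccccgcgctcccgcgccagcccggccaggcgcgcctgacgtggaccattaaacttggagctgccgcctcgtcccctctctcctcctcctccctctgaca
Adra1d: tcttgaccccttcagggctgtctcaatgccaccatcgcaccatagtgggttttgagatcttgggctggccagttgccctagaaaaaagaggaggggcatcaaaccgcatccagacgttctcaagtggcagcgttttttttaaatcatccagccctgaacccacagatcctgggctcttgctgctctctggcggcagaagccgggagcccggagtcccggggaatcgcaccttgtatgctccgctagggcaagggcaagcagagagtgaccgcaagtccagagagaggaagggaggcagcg
The Adra1a sequence is chr14:66872450-66872749 (+ strand), Adra1b chr11:43727110-43727409 (- strand) and Adra1d chr2:131404644-131404943 (- strand). For Adra1b this start lies inside the gene, since longer transcripts begin upstream. Adra1a had 48.7% G and C, Adra1b 73.0% and Adra1d 57.3%, against a median of 54.3% over 21093 promoters of protein-coding genes. Some chromosomes, an autosome among them, were left out of that set. The GC box was present in the Adra1b window and absent from the Adra1a and Adra1d windows, and 42.7% of the promoters in the set hold it. A cAMP response element (TGACGTCA, in 2.47% of the set) and a TATA box (TATAAA, in 13.2%) were searched on both strands and found in none of the 9 genes. A match or its absence describes these letters only.

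The genes also differ in size, which matters for nuclear RNA, where most of the counted molecules can be introns. Adra1a spans chr14:66872700-67012152 (139.453 kb, 85.5% intron), Adra1b chr11:43665433-43792037 (126.605 kb, 97.3% intron), Adra1d chr2:131385993-131404693 (18.701 kb), Adrb1 chr19:56710631-56721545 (10.915 kb) and Drd2 chr9:49251654-49319477 (67.824 kb, 95.4% intron). The other members are short: Adra2a at chr19:54032582-54037413 (4.832 kb), Adra2c at chr5:35435663-35439107 (3.445 kb), Drd1 at chr13:54204872-54209760 (4.889 kb) and Drd5 at chr5:38476710-38479861 (3.152 kb). Noncoding genes on the opposite strand overlap all members but Adra2c and Drd1, and whether counting used the strand is not given in the sources used here. Reads of such partners could therefore be among the counts.

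Over all nuclei Adra1a was the most counted receptor, with 8788 UMIs (40.4 CPM, between 34.0 and 46.3 in the 8 pools), and 7.86% of nuclei held at least 1. Adra1d had 12.6 CPM (9.15 to 16.6), Adrb1 10.9 (8.85 to 15.0), Adra1b 10.2 (7.02 to 14.5) and Drd2 6.70 (2.61 to 19.8). Drd1 (129 UMIs, 0.593 CPM), Drd5 (78 UMIs), Adra2c (67 UMIs) and Adra2a (47 UMIs) were near the limit of detection. Per kilobase of gene the order changed: Adrb1 led with 1.00 CPM per kb, followed by Adra1d (0.676) and Adra1a (0.290), and Adra2a was last (0.0447). Per kilobase of exon the values were 3.23 for Adrb1, 3.04 for Adra1d, 3.02 for Adra1b, 2.13 for Drd2 and 2.00 for Adra1a. The order between members thus depended on which length was used.

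**Figure D1:**
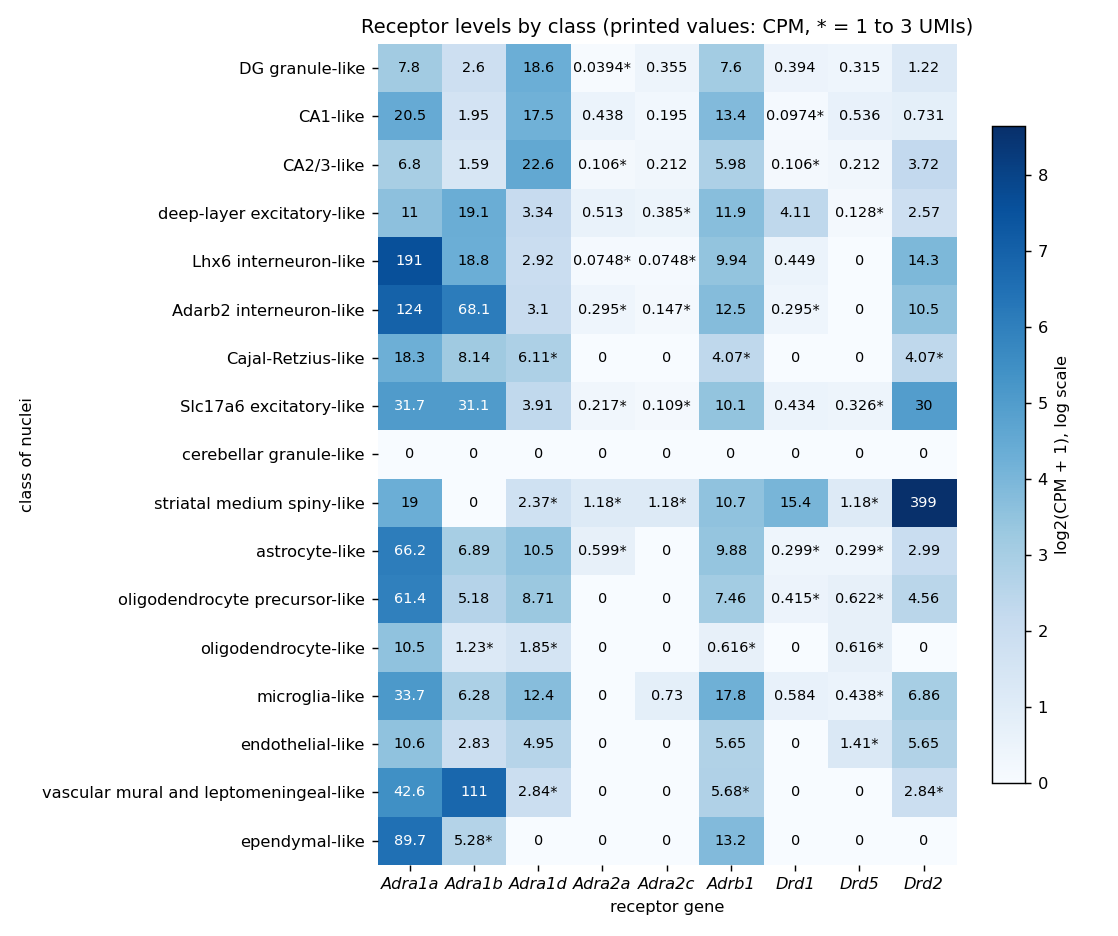
Level of each receptor gene (columns) in each of the 17 named classes (rows), as CPM printed in the cell, with the colour giving log2(CPM + 1). An asterisk marks values from 1 to 3 UMIs. Adra1a is darkest in Lhx6 (191) and Adarb2 (124) interneuron-like nuclei, Adra1d in CA2/3 (22.6), DG (18.6) and CA1 (17.5), and Drd2 in striatal medium spiny-like nuclei (399).

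Among the named classes Adra1a, the alpha-1A receptor, was highest in interneurons. Its level in Lhx6 interneuron-like nuclei was 197 ± 42.3 CPM (SD, n = 8 pools), with a lowest pool of 156, a median of 189 and a highest of 258. In Adarb2 interneuron-like nuclei it was 119 ± 35.7 (67.7 to 169). The Lhx6 value was above the Adarb2 value in 8 of 8 pools, although the ranges of the pools overlap. Of all Adra1a UMIs, 29.1% lay in Lhx6 interneuron-like nuclei, which were 5.86% of nuclei, and 9.54% in the Adarb2 class. Unnamed nuclei, 40.3% of all, held 38.1% of them.

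Principal neurons of 4 named classes held far less Adra1a: 20.5 CPM in CA1, 11.04 in deep-layer excitatory, 7.80 in DG granule and 6.80 in CA2/3-like nuclei. In CA1 the pools ran from 10.53 to 39.4, and no pool of any of these 4 classes reached the lowest interneuron pool. Astrocyte-like nuclei held 60.7 ± 18.8 CPM and oligodendrocyte precursor-like nuclei 71.1 ± 20.9 (SD, n = 8 pools each), between the means of interneurons and principal neurons, and their ranges overlap. Microglia-like nuclei gave 33.7 CPM, ependymal-like nuclei 89.7 from 34 UMIs and oligodendrocyte-like nuclei 10.48, below CA1.

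The share of nuclei with an Adra1a UMI was 30.6% in the Lhx6 class, 25.1% in the Adarb2 class and 15.6% in oligodendrocyte precursor-like nuclei. In oligodendrocyte-like nuclei, taken as the background class, it was 2.01%, at a median of 1873 UMIs per nucleus against 2352 in the Lhx6 class. With every nucleus thinned to 500 UMIs (48821 nuclei, 8013 too shallow) the Lhx6 share was 9.58% and the oligodendrocyte share 0.143%. Among the 1020 Lhx6 nuclei with an Adra1a UMI, 518 held at least 2.

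Within interneurons the level of Adra1a differed between clusters. A cluster of the Lhx6 class led by Fgf13 and Egfr (755 nuclei) held 531 CPM, with pools from 394 to 883, and 50.7% of its nuclei had a UMI. It was followed by the Btbd11/Erbb4 cluster of the same class (195), the Vip/Wnt5b cluster of the Adarb2 class (178), Lypd6b/Elfn1 (114) and Adarb2/Frem1 (108). The lowest Fgf13/Egfr pool (394) lay above the highest pool of each of these 4 clusters. Of the Lhx6 class markers, only Gad1 and Gad2 were among the leading genes of Fgf13/Egfr, and both are also markers of the Adarb2 class. An unnamed cluster led by Fn1 (1977 nuclei) held 89.1.

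**Figure D2:**
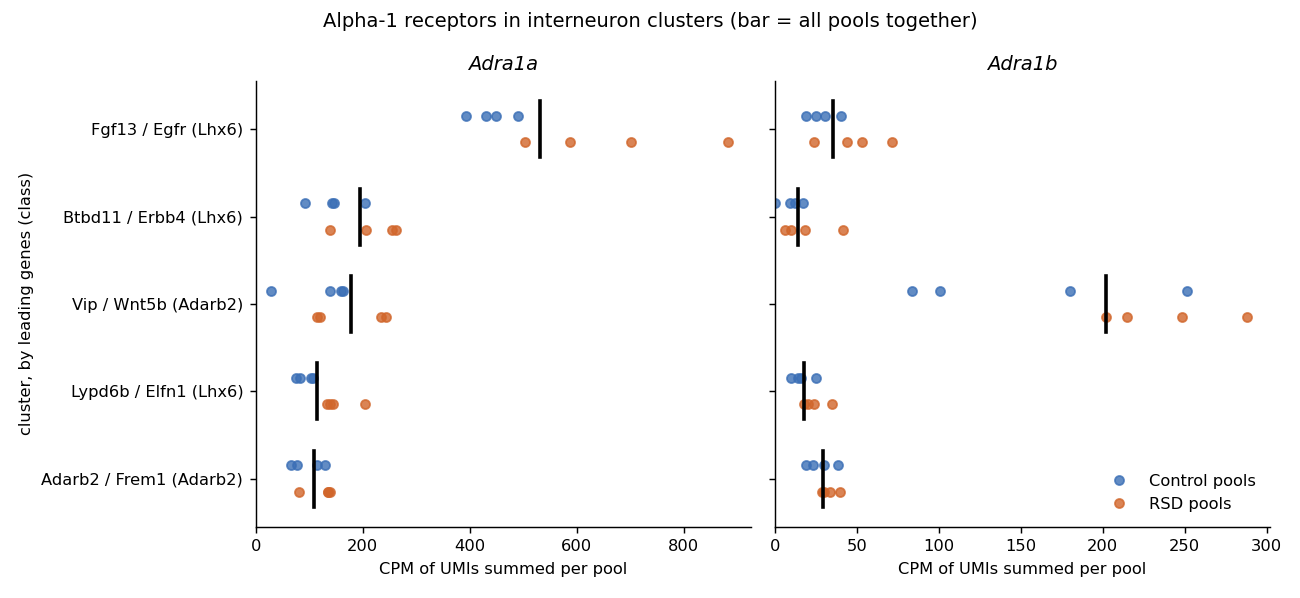
Adra1a (left) and Adra1b (right) in 5 interneuron clusters named by their leading genes, as CPM per pool (blue control pools, orange RSD pools) with a black bar at the value of all pools together. Adra1a stands highest in Fgf13/Egfr (531) and Adra1b in Vip/Wnt5b (202).

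Adra1b, the alpha-1B receptor, had its highest interneuron level in the other class. In Adarb2 interneuron-like nuclei its pools ran from 40.4 to 108 CPM, with a mean of 68.8 ± 22.6 (SD, n = 8 pools), and every pool was above the highest Lhx6 pool (33.0). The Lhx6 class held 18.8 and the deep-layer excitatory class 19.1, whose pools overlap. DG granule (2.60), CA1 (1.95) and CA2/3-like nuclei (1.59) were low.

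The Vip/Wnt5b cluster, named for Vip, a peptide of disinhibitory interneurons, held 202 CPM of Adra1b (83.4 to 288 over pools). Fgf13/Egfr held 35.4 and Adarb2/Frem1 29.3. In the Vip/Wnt5b cluster 71 nuclei had Adra1a alone, 94 Adra1b alone, 62 both and 281 neither. In Fgf13/Egfr the counts were 330, 9, 53 and 363. Nuclei with both had more UMIs (median 5538.5 against 1212 in nuclei with neither in the Vip/Wnt5b cluster), so the shares move with depth.

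The highest Adra1b value of any class, 111 CPM in vascular mural and leptomeningeal-like nuclei, rested on 39 UMIs in 8 of 136 nuclei, 19 of them in 1 nucleus. These 8 nuclei carried less of some markers of the class than its other 128: Pdgfrb, a receptor of mural cells, was at 37.3 against 372 CPM, and Notch3 and Slc6a13 at 0 (3 UMIs would be 37.3) against 192 and 107. Col1a2 was at 149 against 177. Slc17a6 excitatory-like nuclei held 31.1 CPM. None of the 268 striatal nuclei had an Adra1b UMI, which allows up to 1.12% of nuclei with one.

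Adra1d, the alpha-1D receptor, was lower in interneurons than in DG, CA1 and CA2/3-like nuclei. It was highest in CA2/3-like nuclei, at 23.5 ± 3.68 CPM (SD, n = 8 pools; 20.1 to 28.7), then in DG granule (17.9 ± 3.79) and CA1-like nuclei (16.8 ± 3.79), whose pool ranges overlap. Lhx6 and Adarb2 interneuron-like nuclei held 2.92 and 3.10, and in both the highest pool (6.12 and 5.55) lay below the lowest pool of the 3 principal classes (10.8). Of all Adra1d UMIs, 23.2% lay in CA2/3, 17.2% in DG granule and 13.1% in CA1-like nuclei, and 35.7% in unnamed nuclei. Per kilobase of gene, Adra1d exceeded Adra1a in CA2/3-like nuclei (1.21 against 0.0488) and Adra1a exceeded Adra1d in the Lhx6 class (1.37 against 0.156).

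**Figure D3:**
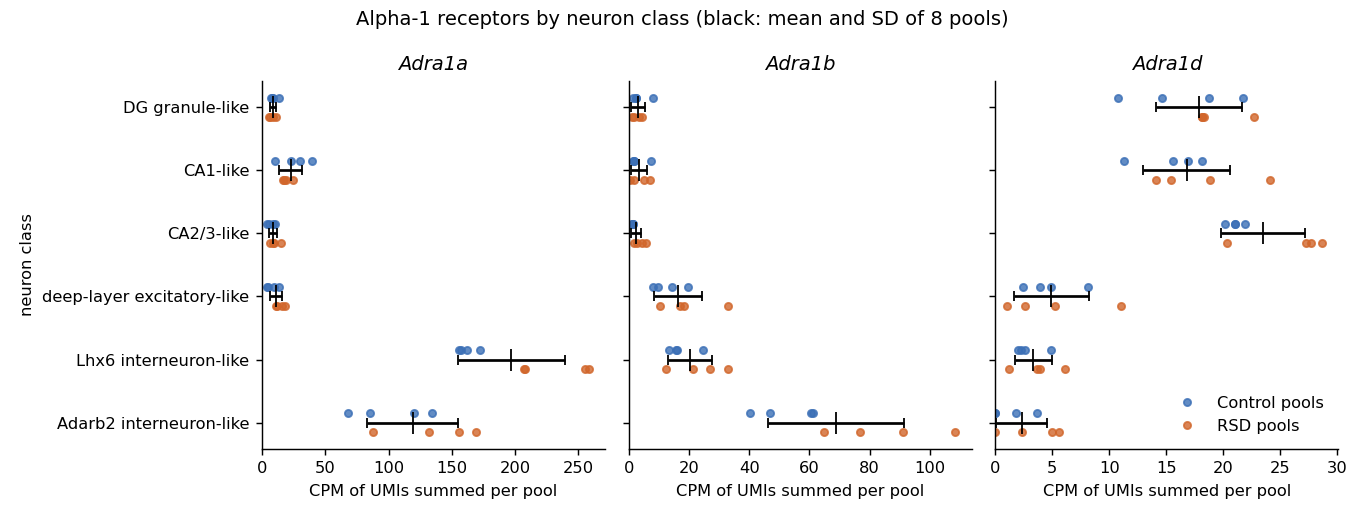
The 3 alpha-1 receptors in 6 neuron classes, as CPM per pool (blue control, orange RSD), with the mean and SD of 8 pools in black. Adra1a stands apart in Lhx6 and Adarb2 interneuron-like nuclei, Adra1b in the Adarb2 class alone, and Adra1d in DG, CA1 and CA2/3-like nuclei.

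Adrb1, the beta-1 receptor, varied less between neuron classes than the alpha-1 receptors did. The 6 neuron classes that entered the tests lay between 5.98 CPM (CA2/3) and 13.4 (CA1), and neighbours in that order overlap over pools. Microglia-like nuclei held 19.4 ± 8.80 (SD, n = 6 pools of at least 20 nuclei), from 14.2 to 36.9, with Stress-nIL-1R1-/- apart from the rest, of which the next was 19.7. Among clusters, an unnamed one led by Igfn1 (24.3), the Vip/Wnt5b cluster (24.2) and the Fn1 cluster (18.3) were highest. Oligodendrocyte-like nuclei gave 1 UMI (0.616).

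The alpha-2 receptors, presynaptic autoreceptors on noradrenergic terminals and receptors on target neurons, were barely counted. Adra2a had 9 UMIs in CA1-like nuclei (0.438 CPM, 0.201 to 0.832) and Adra2c 9 in DG granule (0.355) and 5 in microglia-like nuclei (0.730). Levels this low do not order the classes. The gene model of Adra2c has 1 exon, and exons of one or another transcript cover all of Adra2a.

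Drd2 was the dopamine receptor with most UMIs, and its tissue level was highest in the pool with most striatal nuclei. In striatal medium spiny-like nuclei it was 399 CPM (337 UMIs), with a UMI in 35.8% of 268 nuclei (30.1 to 41.9%), and 15.6% after thinning. Of these nuclei 243 were in Stress-IL-1R1+/+, with 0 to 13 in the other pools. Over all nuclei Drd2 was 19.8 CPM in Stress-IL-1R1+/+, which became 8.26 without the striatal nuclei and 6.86 without Slc17a6 excitatory and cerebellar nuclei as well. Over all nuclei the other 7 pools lay between 2.61 and 9.74, and Con-IL-1R1+/+, which held 1343 of the Slc17a6 nuclei, was the highest of them. With striatal, Slc17a6 excitatory and cerebellar nuclei left out of every pool, Stress-IL-1R1+/+ was still the highest. Its 6.86 CPM stood against a median of 3.32 and a lowest pool of 2.07 over the 8 pools.

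**Figure D4:**
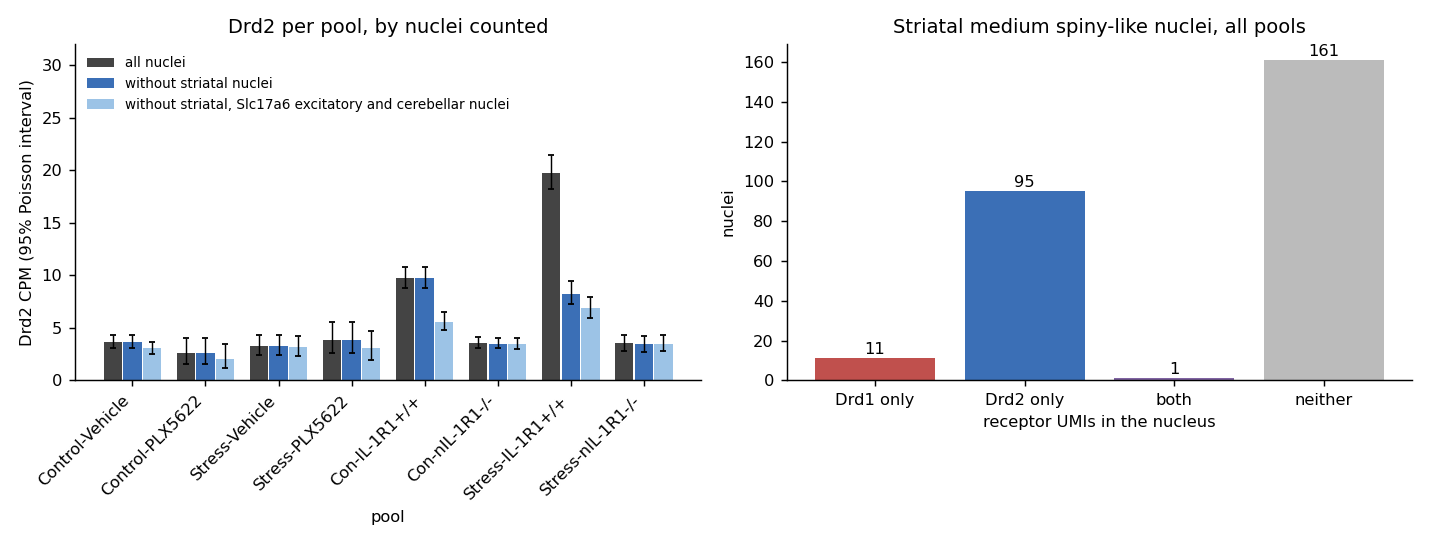
Left, Drd2 per pool in CPM for all nuclei, without striatal nuclei, and without striatal, Slc17a6 excitatory and cerebellar nuclei, with 95% Poisson intervals. Right, striatal medium spiny-like nuclei by receptor UMIs: 11 Drd1 only, 95 Drd2 only, 1 both, 161 neither.

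In the striatal nuclei Drd1 had 13 UMIs (15.4 CPM), in 4.48% of nuclei (2.33 to 7.69%). Drd1 alone was found in 11 nuclei, Drd2 alone in 95, both in 1 and neither in 161. In the 96 nuclei with a Drd2 UMI, Adora2a, an adenosine receptor, was at 101 CPM and Penk, which encodes proenkephalin, at 161, against 3.79 and 17.1 in the 172 nuclei without. Both were at 0 in the 12 nuclei with Drd1, where 3 UMIs would be 50.8 CPM. Rgs9, the marker that chose the class, was 1597 CPM with Drd2 and 1269 without.

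Outside the striatum class, Drd2 was highest in the Slc17a6 class (29.97 CPM), with 193 of its 276 UMIs in Con-IL-1R1+/+ and 40 in 62 nuclei of Stress-IL-1R1+/+. Lhx6 interneuron-like nuclei held 14.3 (2.45 to 21.1 over pools) and the Adarb2 class 10.47. The Lypd6b/Elfn1 cluster of the Lhx6 class held 29.0. CA2/3 (3.72), DG granule (1.22) and CA1-like nuclei (0.731) were low, and oligodendrocyte-like nuclei had none (0 of 698, which allows up to 0.430% of nuclei with a UMI). Drd1 outside the striatal class was highest in deep-layer excitatory-like nuclei, with 32 UMIs (4.11 CPM; 0 to 7.18 over pools). Drd5, the D5 receptor, had 11 UMIs in CA1 (0.536 CPM) and none in the 2 interneuron classes (0 of 3330 and 0 of 1482 nuclei, which allows up to 0.0901% and 0.202% of nuclei with a UMI). At 78 UMIs over all nuclei, this does not bound how many interneurons express Drd5.

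Across the 17 classes, the genes whose levels ran most like those of the members with over 100 UMIs were, by Pearson correlation of log2(CPM + 1) over classes, Dchs1 (r = 0.892), Gfpt2 and Tox2 for Adra1a, Impact (0.886) for Adra1b, Rtn4rl2 (0.9504) for Adra1d, Ppa1 (0.883) for Adrb1, Gm30313 (0.880) and Rgs9 (0.866) for Drd1 and BC049352 (0.898) for Drd2. The points are classes of the same libraries, and 15502 genes were compared, so these are descriptions.

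RSD was tested for the members in 26 combinations of gene and class: Adra1a in 8 classes, Adra1b and Adrb1 in 6 each, Adra1d and Drd2 in 3 each. Adra2a, Adra2c, Drd1 and Drd5 passed the low-count filter in none. None of the 26 passed an adjusted p of 0.05 in edgeR's quasi-likelihood test over all genes of a class, where 0.439% of all 75430 gene and class pairs passed. With DESeq2 likewise 0 passed. At an unadjusted p under 0.05 there were 8 of the 26 (30.8%) against 10.4% of all pairs, and 18 were higher and 8 lower with RSD, with a median log2 difference of 0.19 while class medians over all genes were within -0.01 and 0.01. In 5 of the 26 all 4 RSD pools were above all 4 control pools, as in 1.96% of all pairs, and in 0 below (2.16% of all pairs).

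Adra1a in Lhx6 interneuron-like nuclei was the first of these. The control pools were at 162, 157, 156 and 172 CPM (vehicle, PLX5622, IL-1R1+/+, nIL-1R1-/-) and the RSD pools at 258, 208, 207 and 255. The groups do not overlap, as for 1.56% of genes in this class, and the log2 difference was 0.51 (SE 0.11), with an unadjusted p of 0.000252 and an adjusted p of 0.120 in edgeR. With nuclei of at least 1000 UMIs alone it passed (log2 difference 0.56, adjusted p = 0.0399 in edgeR), and over 9 alternatives the adjusted p ran from 0.0399 to 0.771 (without the pair as a term 0.415).

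The RSD pool was shallower than its control in the vehicle pair (median 1325.5 against 2563 UMIs per nucleus) and the nIL-1R1-/- pair (2580 against 5012), and of like depth in the other pairs, and the part of depth in these values was not tested beyond that setting. The Fgf13/Egfr cluster, where Adra1a was highest, was 22.9 to 25.6% of Lhx6 nuclei in control pools and 19.95 to 21.8% in RSD pools. Within that cluster Adra1a was 394 to 490 in control pools and 503 to 883 in RSD pools, and within Lypd6b/Elfn1 75.3 to 106 against 134 to 205. In Btbd11/Erbb4 the RSD pool was above its control in 4 of 4 pairs too (92.3 to 203 against 138 to 262). The direction was not shared by every cluster. In the unnamed Fn1 cluster the RSD pool was below its control in 3 of 4 pairs, at 77.7 against 106 CPM (vehicle), 19.8 against 61.2 (PLX5622, from 4 and 20 UMIs) and 79.5 against 117 (nIL-1R1-/-), with counting intervals of the ratio that leave out equality, and above it in IL-1R1+/+ (67.8 against 56.2). In Vip/Wnt5b it was above in 3 of 4 pairs. These were looked at after the class values had been seen.

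Adra1a in oligodendrocyte precursor-like nuclei was 52.6, 66.4, 45.1 and 48.0 CPM in control pools and 83.0, 98.9, 84.0 and 91.1 in RSD pools, again with no overlap (2.15% of genes in this class). The log2 difference was 0.79 (SE 0.21), with an adjusted p of 0.131 in edgeR. In Adarb2 interneuron-like nuclei Adra1a overlapped between groups (log2 difference 0.48, adjusted p 0.475 in edgeR), and the difference was 0.22 without the nIL-1R1-/- pair and 0.68 without the vehicle pair. Control pools were at 134, 67.7, 120 and 85.6 and RSD pools at 132, 87.9, 155 and 169.

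Adra1b in Adarb2 interneuron-like nuclei was 60.5, 46.9, 40.4 and 61.2 CPM in control pools and 108, 64.8, 76.8 and 91.1 in RSD pools. The groups do not overlap (1.46% of genes in this class), with a log2 difference of 0.72 (SE 0.18) and an adjusted p of 0.123 in edgeR. In the Vip/Wnt5b cluster Adra1b was higher in the RSD pool of 4 of 4 pairs, from 83.4 to 252 in control pools and 202 to 288 in RSD pools. The log2 ratio was 0.19 (vehicle), 1.36 (PLX5622), 1.30 (IL-1R1+/+) and 0.17 (nIL-1R1-/-). Its counting interval left out equality only in IL-1R1+/+. That cluster's share of the Adarb2 class overlapped between groups (24.4 to 42.3% and 24.1 to 47.2%). By pair the share rose from 27.3 to 37.7% (vehicle) and from 35.4 to 47.2% (nIL-1R1-/-). It fell from 24.4 to 24.1% (PLX5622) and from 42.3 to 39.4% (IL-1R1+/+). The part of this share in the class difference was not tested. Adra1b in Lhx6 interneuron-like nuclei had a log2 difference of 0.67 (adjusted p 0.423), and in CA2/3-like nuclei, from 45 UMIs, of 1.249 (adjusted p 0.283), where control pools lay between 0.906 and 1.46 CPM and RSD pools between 1.67 and 5.82.

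Adrb1 in Lhx6 interneuron-like nuclei was 7.95, 7.35, 8.06 and 6.95 CPM in control pools and 23.3, 12.2, 11.6 and 12.1 in RSD pools (log2 difference 0.92, adjusted p 0.319). The groups do not overlap, and Stress-Vehicle was the highest. The Control-PLX5622 value rests on 3 UMIs. Adra1d in CA2/3-like nuclei was 20.1, 21.9, 21.1 and 21.0 in control pools and 28.7, 20.4, 27.3 and 27.7 in RSD pools (log2 difference 0.37, adjusted p 0.305), where the PLX5622 pair lay apart from the other 3.

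**Figure D5:**
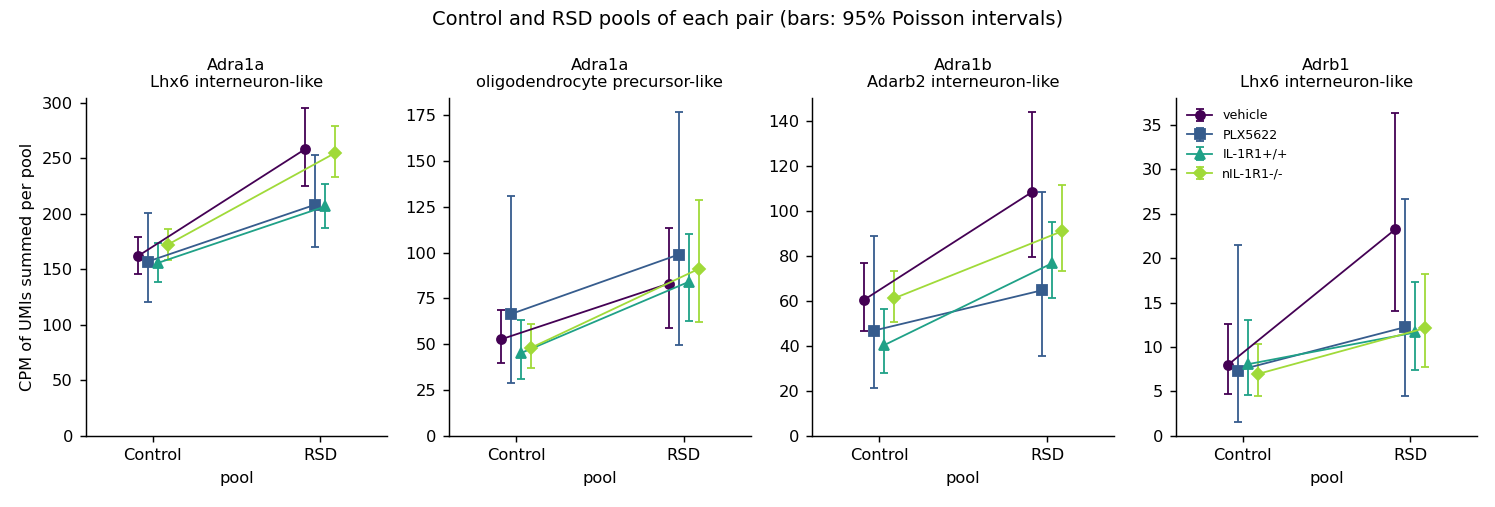
Control and RSD pool of each pair for Adra1a in Lhx6 interneuron-like and oligodendrocyte precursor-like nuclei, Adra1b in Adarb2 and Adrb1 in Lhx6 interneuron-like nuclei, as CPM with 95% Poisson intervals. All lines run upward, and in each panel the 4 RSD pools lie above the 4 control pools. None passed the adjusted test.

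The PLX5622 diet and the loss of neuronal IL-1R1 were read from the same fits. For PLX5622, none of 26 member tests passed (0.0318% of all pairs did), 1 (3.85%) had an unadjusted p under 0.05 against 5.62% of all pairs, and the median log2 difference was -0.03. It was Adra1a in Adarb2 interneuron-like nuclei (-0.81, adjusted p 0.930), which was -0.42 without Control-Vehicle and -1.17 without Stress-Vehicle. For nIL-1R1-/-, none passed either (0.0119% of all pairs), 1 (3.85%) had an unadjusted p under 0.05 against 2.59% of all pairs, and the median was 0.14. It was Adra1b in deep-layer excitatory-like nuclei (-0.80, adjusted p 1.00), which was -0.44 without Stress-IL-1R1+/+. Adra1b there was 19.5 (control) and 33.1 CPM (RSD) in the IL-1R1+/+ pools, against 14.4 and 17.0 in the nIL-1R1-/- pools. Each contrast rests on 2 pools against 2, and both PLX5622 pools are shallow.

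The genes that supply and remove catecholamines, their G proteins and regulators, and their effectors were taken as fixed lists. With RSD, 0 of 103 tests of G proteins and regulators (14 genes), 0 of 19 of supply and removal (5 of 11 genes passed the filter) and 1 of 118 of effectors (15 of 16 genes) passed. It was Kcnj3, a subunit of the GIRK potassium channels that Gi-coupled receptors open, in CA2/3-like nuclei (log2 difference -0.51, SE 0.12, adjusted p 0.0372 in edgeR; 0.237% of genes of this class were called lower). Kcnj3 was at 258, 247, 344 and 367 CPM in the control pools and 179, 128, 261 and 294 in the RSD pools, lower in 4 of 4 pairs although the groups overlap. The call was lost without the vehicle pair (adjusted p 0.383), without the PLX5622 pair (0.0889), without the nIL-1R1-/- pair (0.0503) and without the pair as a term (0.572). In the other 7 classes the Kcnj3 difference was also below 0 (-0.60 to -0.11), and it passed in none. The median log2 difference was -0.03 over the effector tests, 0.07 over G proteins and regulators and -0.12 over supply and removal. Several synthesis and uptake genes of catecholamine neurons were near 0 in sums over all nuclei, as Th (27 UMIs), Dbh (35) and Slc6a3 (36) show. Slc6a2 had 42 UMIs and Pnmt 1, but Slc18a2 had 480 and Ddc 974. The levels of Ddc and Maoa were highest in endothelial-like nuclei (119 and 98.2 CPM). That of Maob was highest in ependymal-like (44.9, from 17 UMIs) and then astrocyte-like nuclei (34.1). Most UMIs of Maoa lay elsewhere, since endothelial-like nuclei held 139 of its 2186. Receptors outside the list of members were low too: Drd3 had 172 UMIs, Adrb3 82, Adra2b 9 and Drd4 5.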

How the data were processed

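Nuclei of pooled hippocampi were barcoded in split-pool rounds (Parse Biosciences) and read as 4 sublibraries that each hold all 8 pools. The authors deposited counts of UMIs per nucleus and gene, whole and not normalized, made with the Parse pipeline on mm39. The release of their annotation is not given in the sources used here, and Seurat 4.1.1 is named in the submitters' processing notes. Each nucleus took its pool from the deposited table of nuclei, which ties it to a condition of the labels. No column of per-sample values was left unused.

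Nuclei with at most 20% mitochondrial UMIs were log-normalized (Scanpy 1.11.5, Python 3.11.15), and 2000 variable genes, 30 principal components and 15 neighbours were used for Leiden clusters at resolution 1. A cluster took a class name where at least 3 markers were detected and the best marker score was at least 1.25 times the second. Further rules on leading markers and depth applied. The Lhx6 and Adarb2 interneuron lists share Gad1, Gad2 and Slc32a1, and neither class was taken as the second of the other. The margin therefore did not separate these classes. The members, gene lists and markers were chosen with earlier results of these data known, and the naming rule was revised after tables of clusters and of the members by cluster had been seen. The values of some clusters are not reported here. Doublets were left in. Scrublet's own threshold marked up to 22.9% of 1 pool and almost none of the others, so the 6% of nuclei with the highest scores per pool were left out as an alternative.

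UMIs were summed per pool and class. edgeR 4.0.16 (R 4.3.3; TMM, filterByExpr, quasi-likelihood) fitted RSD with the pair of pools as a term, on all genes of a class, with Benjamini-Hochberg adjustment over those genes. The 8 pools give 3 residual degrees of freedom. The fit was checked on simulated counts. Genes named are all 9 members, the 3 genes most like each, and list genes by count, range or a passed test. DESeq2 1.42.0, other filters, left-out pairs and pools, and other clusterings were tried as alternatives. Pairs share diet or genotype by design, and each pool of 3 mice is 1 value.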

Additional observations from a re-analysis of the deposited data

Results flagged for a closer look

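Among 60 groups of 4 sublibraries or pools, 4 held a value far from the others of its group, where chance flags about 1 in 20. Adra1a in Lhx6 interneuron-like nuclei was 216 CPM in sublibrary 1 against 175 to 181 in the other 3. Adra1d was 20.4 CPM in CA2/3-like nuclei of Stress-PLX5622, below the 27.3 to 28.7 of the other RSD pools, and 22.7 CPM in DG granule-like nuclei of the same pool, above their 18.1 to 18.3. Drd2 in oligodendrocyte precursor-like nuclei was 24.9 CPM in Control-PLX5622, from 3 UMIs, against 2.87 to 4.104 in the other control pools.

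Drd2 in Lhx6 interneuron-like nuclei had log2 ratios of opposite sign in the 2 experiments. The log2 ratio of the RSD to the control pool was 0.13 with vehicle and 2.74 with PLX5622, but -1.20 in IL-1R1+/+ and -0.0494 in nIL-1R1-/-. The PLX5622 ratio sets 8 UMIs against 1. This difference was not tested, and 26 combinations of member and class were compared in this way.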

How the results depend on the processing

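Depth, 1 pool per condition and the small number of UMIs of Adra2a, Adra2c, Drd1 and Drd5 limit these data. Direction was compared between settings only for Kcnj3 and for member tests with an unadjusted p under 0.05 in the main edgeR fit. None of these changed direction under any alternative run. The direction of the other member tests was not compared. RSD was called for 331 gene and class pairs, for 750 with no filter beyond 1 UMI, for 35 with no replicate block, and for 44 to 328 when 1 pair was left out (44 without the vehicle pair); none of these fits called a member. With nuclei of at least 1000 UMIs, 1 member was called (Adra1a in Lhx6 interneuron-like nuclei, log2 difference 0.56). The pairs are set by diet and genotype. Deviations of the 2 pools of a pair from their group means correlated weakly (r from 0.0164 to 0.218, above 0.1 in every pair only in DG granule-like nuclei). In that class r within a pair was above the highest r with another pair for vehicle (0.169 against 0.087) and PLX5622 (0.147 against 0.061). It was below it for IL-1R1+/+ (0.188 against 0.209) and nIL-1R1-/- (0.166 against 0.203). The block result thus stands as a property of this design. PLX5622 was called for 24 pairs of gene and class, for 12 by DESeq2, 109 with no filter and 14 with nuclei of at least 1000 UMIs, and for 15 to 130 without 1 pool (15 without Control-Vehicle, 50 without Control-PLX5622, 46 without Stress-Vehicle, 130 without Stress-PLX5622). Loss of neuronal IL-1R1 was called for 9, for 4 by DESeq2, 29 with no filter and 6 to 49 without 1 pool (32 without Stress-IL-1R1+/+, 49 without Stress-nIL-1R1-/-). No member was called in either contrast in any of these fits. The fits without 1 pool were chosen after seeing the data.

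Levels kept within the spread of the pools for 145 of 148 values under other settings and 86 of 88 with 1 pair left out. The exceptions were Adra2c and Drd5 over all nuclei, 0.451 and 0.492 CPM when thinned to 500 UMIs against 0.308 and 0.359, and Drd1 in striatal nuclei, 7.60 when thinned against 15.4. Without the IL-1R1+/+ pair, which held most striatal nuclei, Drd2 there was 96.5 CPM and Drd1 27.6 (ranges over left-out pairs 96.5 to 415 and 14.5 to 27.6). Shares of nuclei with a UMI fell with thinning by construction: Adra1a in Lhx6 from 30.6 to 9.58%, Adra1b in Adarb2 from 17.6 to 3.46%, Adra1d in CA2/3 from 12.7 to 1.08%, Adrb1 in CA1 from 5.71 to 0.570%, Drd2 in Lhx6 from 3.48 to 0.615%, Drd1 in deep-layer nuclei from 1.36 to 0.239%, and in striatal nuclei Drd1 from 4.48 to 0.380% and Drd2 from 35.8 to 15.6%.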
